A study of Mus musculus with 2 samples.

Results

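Oxidative phosphorylation is the process by which mitochondria make ATP. Complexes I and II pass electrons from NADH and succinate to ubiquinone, complex III passes them on to cytochrome c, complex IV gives them to oxygen, and ATP synthase (complex V) uses the proton gradient built on the way. Most of its subunits are encoded in the nucleus and a small core is encoded by mitochondrial DNA; in thermogenic fat the respiratory chain is run fast and uncoupled by Ucp1, and Prdm16 is known as a transcriptional regulator of that brown and beige programme. The nuclear genes described here are those whose symbol begins with Nduf, Uqcr, Atp5 or Sdh followed by a to d, or is Cox4 to Cox8 with its trailing letters, or is Cycs, without symbols that end in -ps or Rik. This name rule found 98 of the 32285 genes listed in both matrices and left out Ndufb1-ps. It gave 36 complex I subunits, 8 complex I assembly factors, 4 complex II subunits, 4 complex II assembly factors, 8 complex III subunits, 20 complex IV genes, 17 ATP synthase genes and cytochrome c (Cycs). Ndufa4, named for complex I, was counted with complex IV, of which its protein is a subunit, and 84 of the 98 encode structural subunits or cytochrome c.

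Single nuclei were sequenced from perivascular fat dissected around mesenteric vessels of mice aged 11 weeks, with 1 library per genotype. The library labelled Prdm16 cKO came from mice with floxed Prdm16 that carried Adipoq-Cre (spelt AdopiQCre+ in the sample label), a Cre driven by the promoter of adiponectin, which adipocytes express. The flox control library came from mice with floxed Prdm16 and no Cre named, and is titled wt. Neither the sex of the mice nor the number pooled in a library is given in the sources used here. With 1 library per genotype no difference below has a replicate check and none was tested, and each interval is a 95% interval that covers counting error only.

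After filtering, 7374 cKO-labelled nuclei (median 6497 UMIs, unique molecular identifiers that count captured RNA molecules) and 10532 flox nuclei (median 7043.5 UMIs) remained. The libraries shared 28 barcodes; without them the summed log2 ratio described below was 0.19, against 0.18 with them. Adipocyte-like nuclei, named from clusters in which 7 to 10 of 11 adipocyte markers stood out, numbered 2913 in the library labelled Prdm16 cKO and 4427 in the flox control. Prdm16 itself was not lower in them: it had 869 UMIs, or 22.4 CPM (UMIs scaled to a total of 1000000 per class and library), in cKO-labelled nuclei and 964 UMIs, or 16.5 CPM, in flox nuclei (log2 ratio 0.44, 0.30 to 0.57). Counts at the 3' end outside a floxed exon do not check a deletion, and the floxed exon is not named in the sources used here, so "cKO-labelled" is used throughout. Ucp1 had 0 UMIs in cKO-labelled and 1 UMI in flox adipocyte-like nuclei.

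In adipocyte-like nuclei the nuclear oxidative phosphorylation genes together took a larger share of the RNA in the library labelled Prdm16 cKO. Their summed level was 2281 CPM (2266 to 2296) in cKO-labelled nuclei and 2007 CPM (1996 to 2019) in flox nuclei, a log2 ratio of 0.18 (0.17 to 0.20). The median nucleus had 2265 CPM (quartiles 1911 and 2658) in cKO-labelled and 1976 CPM (1648 and 2339) in flox nuclei, so the nuclei of both libraries overlapped widely. Of the 98 genes, 92 had at least 20 UMIs over both libraries, and 83 of these had a log2 ratio above 0, beside 55.6% of all genes. A ratio of at least 1.2 was reached by 38 of the 92, beside 23.1% of the 17605 genes that passed the same minimum. A single member, Ndufc2, was at least 1.2 times lower, beside 15.1% of all genes. At a ratio of 1.5 the members did not stand apart, with 7 higher, beside 7.99% of all genes, and 0 lower, beside 5.25%. The median log2 ratio of the members was 0.21, and that of all genes was 0.03. The counting interval lay wholly above 0 for 59 members, wholly below 0 for 4 and held 0 for 29; of all genes, 24.7% had an interval above 0 and 17.9% one below 0. When the 4 adipocyte-like clusters were weighted equally, the summed log2 ratio was 0.12, since the libraries fill these clusters unequally.

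Every complex had a higher summed level in cKO-labelled adipocyte-like nuclei. By this sum, complex II, complex IV and ATP synthase differed more than complex I. A sum weights genes by their level, and most of the complex II sum came from the subunit Sdha. Counted by gene, no complex II subunit reached the fold used for single genes, while some complex I subunits did. Complex I subunits summed to 872 CPM in cKO-labelled and 784 CPM in flox nuclei (log2 ratio 0.15, 0.13 to 0.17). Complex IV genes summed to 281 CPM in cKO-labelled and 233 CPM in flox nuclei (0.27, 0.24 to 0.31), and ATP synthase genes to 472 CPM and 407 CPM (0.22, 0.19 to 0.24). Complex II gave 224 CPM in cKO-labelled and 193 CPM in flox nuclei (0.22, 0.18 to 0.26), and complex III 158 CPM and 139 CPM (0.18, 0.13 to 0.23). The interval of complex I lies below those of complex II, complex IV and ATP synthase and overlaps that of complex III. These intervals order the sums and do not rank the complexes by gene. The assembly factors had log2 ratios of 0.13 (0.08 to 0.18) for complex I and 0.08 (0.02 to 0.14) for complex II.

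**Figure D1:**
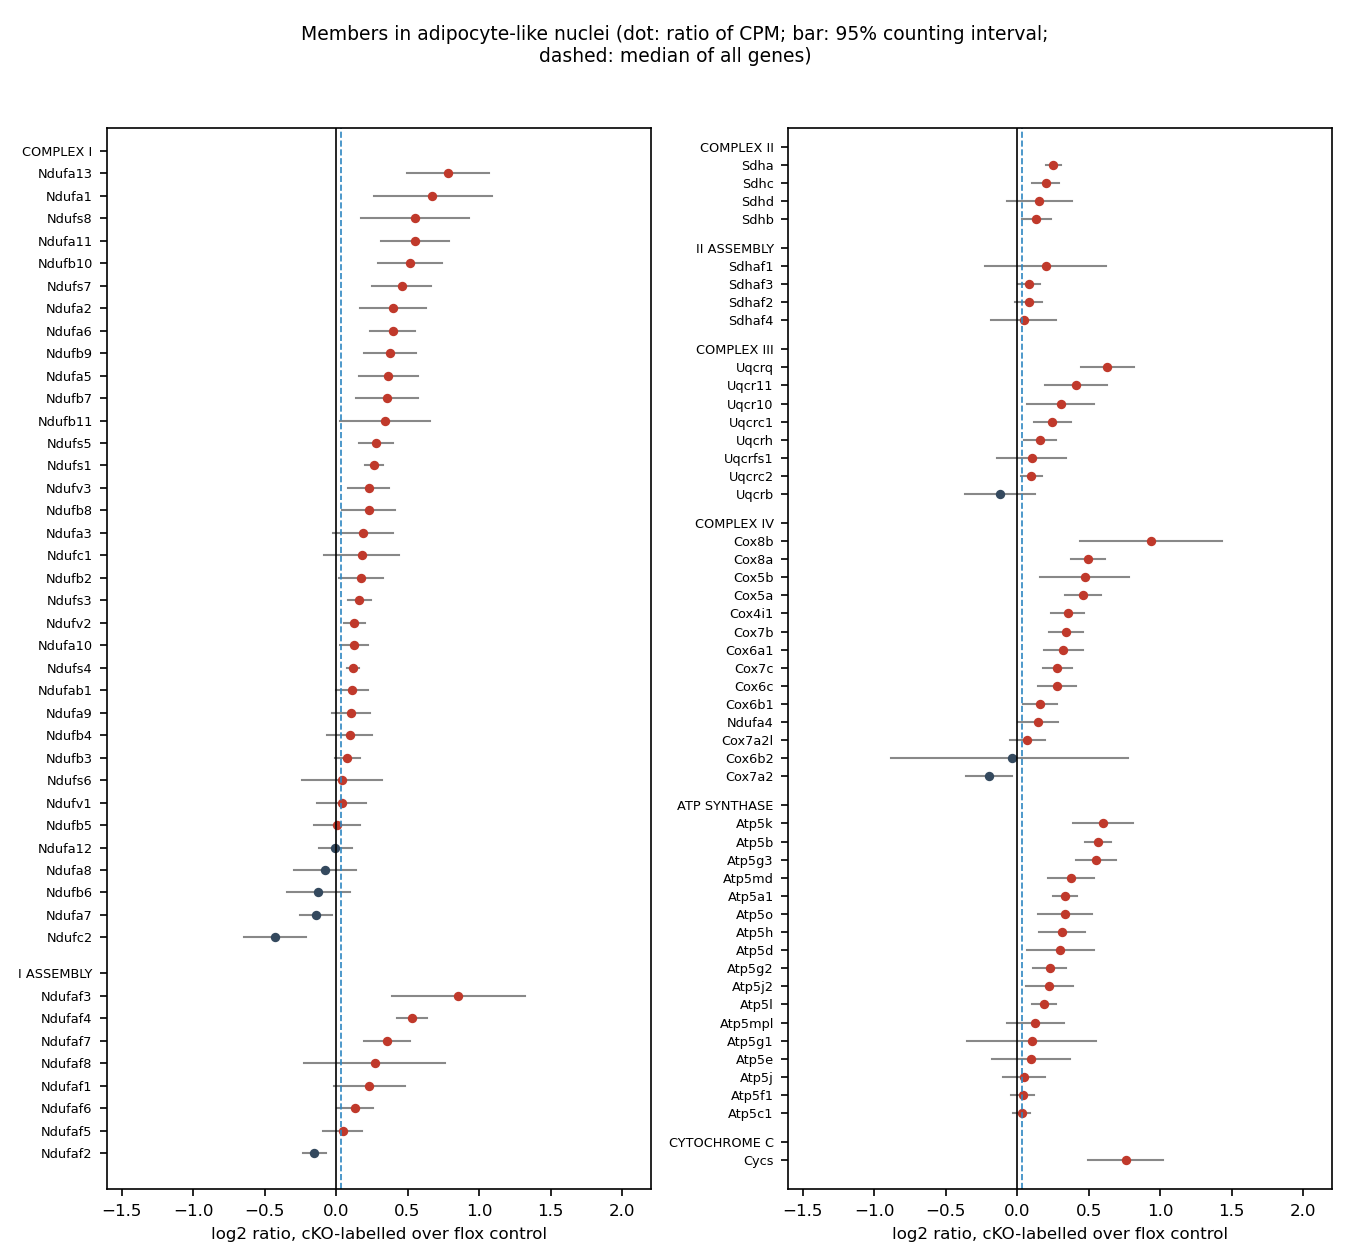
Log2 ratio of CPM, cKO-labelled over flox control, for 91 of the 92 members with at least 20 UMIs in adipocyte-like nuclei, in blocks by complex. Dots are ratios, bars 95% counting intervals, red dots lie above 0 and dark dots below, and the dashed line is the median of all genes at 0.03; 82 of those drawn lie right of 0, Ndufc2 is the lowest and Cox8b the highest.

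Complex I is the entry point for electrons from NADH. Of its 36 subunits 31 had a ratio above 0, beside 55.6% of all genes. At least 1.2 times higher were 13, beside 23.1% of all genes. Ndufa13, an accessory subunit also known as GRIM-19, had 216 UMIs (5.56 CPM) in cKO-labelled and 189 UMIs (3.24 CPM) in flox adipocyte-like nuclei, a log2 ratio of 0.78 (0.49 to 1.07). It overlaps another gene on its own strand, Yjefn3, so its reads may not all be its own. Ndufa1, an X-linked accessory subunit of the membrane arm, had 104 UMIs (2.68 CPM) in cKO-labelled and 98 UMIs (1.68 CPM) in flox nuclei (0.67, 0.26 to 1.09). Ndufc2, an accessory subunit of the membrane arm, went the other way, with 260 UMIs (6.69 CPM) in cKO-labelled and 525 UMIs (8.99 CPM) in flox nuclei (-0.43, -0.65 to -0.21). Ndufa7 was the next lowest, with 27.7 CPM in cKO-labelled and 30.5 CPM in flox nuclei (-0.14, -0.25 to -0.03).

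Core subunits of complex I encoded in the nucleus carry the flavin and the iron-sulphur clusters. Among them, Ndufs8 had 3.04 CPM in cKO-labelled and 2.07 CPM in flox nuclei (0.55, 0.17 to 0.93), and Ndufs7 9.63 CPM and 7.0 CPM (0.46, 0.25 to 0.66). Ndufs1, an iron-sulphur subunit, had 3729 UMIs (96 CPM) in cKO-labelled and 4674 UMIs (80.0 CPM) in flox nuclei (0.26, 0.20 to 0.32). For Ndufs3 the log2 ratio was 0.16 (0.08 to 0.24) and for Ndufv2 0.13 (0.05 to 0.20). Ndufv1, the NADH-binding subunit, had 11.9 CPM in cKO-labelled and 11.6 CPM in flox nuclei, with an interval that held 0 (0.04, -0.14 to 0.21).

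Complex I assembly factors help build the complex without being part of it. Ndufaf3 and Ndufaf4, which act together early in assembly, had the highest ratios. Ndufaf3 had 89 UMIs (2.29 CPM) in cKO-labelled and 74 UMIs (1.27 CPM) in flox nuclei (0.85, 0.39 to 1.32), and it overlaps Impdh2 on the opposite strand, so its counts are uncertain. Ndufaf4 had 1454 UMIs (37.4 CPM) in cKO-labelled and 1512 UMIs (25.9 CPM) in flox nuclei (0.53, 0.43 to 0.64). Its ratio was above 0 in each of the 8 classes compared, as for 7.17% of all genes tested in all 8. Its interval held 0 in B cell-like (0.06, -0.68 to 0.80) and vascular endothelial-like nuclei (0.46, -0.05 to 0.98). Ndufaf2, a factor of late assembly, was lower, with 53.5 CPM in cKO-labelled and 59.5 CPM in flox nuclei (-0.15, -0.23 to -0.07), and the interval of Ndufaf5 held 0 (0.04, -0.09 to 0.18).

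Complex II links the respiratory chain to the citric acid cycle. None of its 4 subunits reached 1.2 times (23.1% of all genes), although all lay above 0 (55.6% of all genes). Sdha, the flavoprotein subunit, had 5438 UMIs (140 CPM) in cKO-labelled and 6864 UMIs (118 CPM) in flox nuclei (0.25, 0.20 to 0.30). Sdhc, a membrane anchor, had 42.0 CPM in cKO-labelled and 36.6 CPM in flox nuclei (0.20, 0.10 to 0.29). Sdhb, the iron-sulphur subunit, had a log2 ratio of 0.13 (0.03 to 0.23) and the anchor Sdhd one of 0.15 (-0.07 to 0.38). The assembly factors Sdhaf1, Sdhaf2, Sdhaf3 and Sdhaf4 lay between 0.05 and 0.20, and only the interval of Sdhaf3 (0.01 to 0.16) left out 0.

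In complex III, 7 of 8 subunits lay above 0, beside 55.6% of all genes. At least 1.2 times higher were 3, beside 23.1% of all genes: Uqcrq, Uqcr11 and Uqcr10, all small accessory subunits. Uqcrq had 491 UMIs (12.6 CPM) in cKO-labelled and 477 UMIs (8.17 CPM) in flox nuclei (0.63, 0.45 to 0.81). Uqcr11 had 8.67 CPM in cKO-labelled and 6.52 CPM in flox nuclei (0.41, 0.20 to 0.63). The core subunit Uqcrc2 differed little, with 66.0 CPM in cKO-labelled and 61.7 CPM in flox nuclei (0.10, 0.02 to 0.17). Uqcrb had 5.87 CPM in cKO-labelled and 6.37 CPM in flox nuclei, with an interval that held 0 (-0.12, -0.36 to 0.12).

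Complex IV had the highest median of the multi-subunit complexes, 0.30, with 9 of 14 members at least 1.2 times higher (23.1% of all genes). Cox8b, the subunit 8 isoform of heart, skeletal muscle and brown fat, had 80 UMIs (2.06 CPM) in cKO-labelled and 63 UMIs (1.08 CPM) in flox nuclei (0.93, 0.44 to 1.43). Its ubiquitous counterpart Cox8a had 1111 UMIs (28.6 CPM) in cKO-labelled and 1184 UMIs (20.3 CPM) in flox nuclei (0.50, 0.38 to 0.62). A UMI of Cox8b was found in 2.61% of cKO-labelled and 1.36% of flox adipocyte-like nuclei, and at this level the share does not tell how many nuclei express it. Macrophage-like nuclei, which are not known to express it, held one in 1.28% of cKO-labelled and 0.522% of flox nuclei, where the median nucleus had 4263 cKO-labelled and 4508 flox UMIs; in adipocyte-like nuclei these medians were 11927 and 12133. In macrophage-like nuclei Cox8b had 12 UMIs (4.64 CPM) in cKO-labelled and 5 UMIs (1.05 CPM) in flox nuclei (2.15, 0.54 to 4.0), under the minimum of 20 UMIs. After thinning each nucleus to 1000 UMIs, 0.137% of cKO-labelled and 0.181% of flox adipocyte-like nuclei and 0.378% of cKO-labelled and 0% of flox macrophage-like nuclei held a Cox8b UMI (4, 8, 2 and 0 nuclei; a count of 0 allows up to 0.314%). No order is read from these shares.

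Cox4i1, the common subunit 4 isoform, had 30.5 CPM in cKO-labelled and 23.9 CPM in flox adipocyte-like nuclei (0.35, 0.24 to 0.46). Cox5a had 26.0 CPM in cKO-labelled and 18.9 CPM in flox nuclei (0.46, 0.33 to 0.58), and Cox5b 4.32 CPM and 3.12 CPM (0.47, 0.16 to 0.78). Cox7a2, the common subunit 7a isoform, was lower, with 500 UMIs (12.9 CPM) in cKO-labelled and 860 UMIs (14.7 CPM) in flox nuclei (-0.19, -0.36 to -0.03). Cox7a1, the isoform of muscle and brown fat, had 7 UMIs in cKO-labelled and 12 UMIs in flox nuclei, and Cox4i2 3 and 4 UMIs. Cox6a2 had 0 UMIs in cKO-labelled and 2 UMIs in flox nuclei, Cox7b2 1 and 5 UMIs, Ndufa4l2 3 and 1 UMIs and Cox8c 0 in both. These 6 are the members below the minimum.

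All 17 ATP synthase genes lay above 0 (55.6% of all genes), and 8 were at least 1.2 times higher (23.1% of all genes). Atp5b, the catalytic beta subunit, had 1993 UMIs (51.3 CPM) in cKO-labelled and 2029 UMIs (34.7 CPM) in flox nuclei (0.56, 0.47 to 0.65). Its partner Atp5a1, the alpha subunit, had 53.3 CPM in cKO-labelled and 42.3 CPM in flox nuclei (0.33, 0.25 to 0.42). Atp5k, the small membrane subunit e, had 383 UMIs (9.86 CPM) in cKO-labelled and 380 UMIs (6.51 CPM) in flox nuclei (0.60, 0.39 to 0.81). The 3 genes of the c-ring differed among themselves: Atp5g3 had a log2 ratio of 0.55 (0.41 to 0.69), Atp5g2 of 0.23 (0.11 to 0.34) and Atp5g1 of 0.11 (-0.35 to 0.55). Atp5c1, the gamma subunit of the central stalk, had 105 CPM in cKO-labelled and 103 CPM in flox nuclei (0.03, -0.03 to 0.09), and the interval of Atp5f1, of the outer stalk, held 0 too (0.04, -0.04 to 0.12).

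Cycs encodes cytochrome c, the soluble carrier between complexes III and IV that also starts apoptosis when released. It had 260 UMIs (6.69 CPM) in cKO-labelled and 231 UMIs (3.96 CPM) in flox adipocyte-like nuclei (0.76, 0.50 to 1.02). A UMI of it was found in 8.27% of cKO-labelled and 4.95% of flox nuclei, and after thinning in 1.10% (0.753 to 1.55%) and 0.316% (0.173 to 0.530%). In the other classes its counts were low and the intervals of the ratio held 0.

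Nuclear genes of this family are known for promoters that bind NRF1, GABP (an ETS factor), YY1 and the estrogen-related receptors. RefSeq promoters (GRCm38.p6, 250 bases before to 50 after the start) matched 80 of the 98 members by symbol. Either strand was searched for GCGCATGCG (NRF1), CCGGAAG (ETS), AAGATGGCG (YY1), TCAAGGTCA (estrogen-related receptor) and TATAAA. None of these motifs holds another, and they were chosen after a first look at the shares. The NRF1 letters were in 13.8% of the member promoters, beside 1.95% of all 27025 genes with a promoter. CCGGAAG was in 27.5% of member promoters and 9.93% of all, AAGATGGCG in 10.0% and 1.64%, and TCAAGGTCA in 2.5% and 0.466%. TATAAA was in 11.3% of member promoters and 15.7% of all. A match describes letters in this window and is not a binding site. In adipocyte-like nuclei the 11 members with the NRF1 letters had a median log2 ratio of 0.32. The 67 tested members with a promoter but without them had 0.18. For CCGGAAG the medians were 0.19 with and 0.23 without, and for AAGATGGCG 0.15 and 0.23. For TATAAA they were 0.27 and 0.21, and for TCAAGGTCA, with 2 members, 0.35 and 0.21. None of these gaps was tested. The stretches below hold NRF1 letters in capitals; they come from the members with the highest ratios that carry them before the start, read in the direction of the gene.
Cycs, chr6:50566597-50566655, minus strand: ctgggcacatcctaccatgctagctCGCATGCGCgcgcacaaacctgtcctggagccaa
Atp5k, chr5:108434416-108434474, minus strand: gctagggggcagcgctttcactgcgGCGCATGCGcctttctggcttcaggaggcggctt
Ndufa11, chr17:56717677-56717735, plus strand: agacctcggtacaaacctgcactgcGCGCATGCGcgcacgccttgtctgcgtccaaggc
Ndufaf4, chr4:24897945-24898003, plus strand: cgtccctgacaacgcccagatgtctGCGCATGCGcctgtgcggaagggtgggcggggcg
Cox6a1, chr5:115349087-115349145, minus strand: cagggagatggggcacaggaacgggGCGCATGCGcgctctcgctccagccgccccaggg
In Cycs the letters lie 61 bases before the start and in Atp5k 50 bases before it. Ndufa11 and Ndufaf4 had log2 ratios of 0.55 and 0.53 and Cox6a1 one of 0.32, while Ndufa8, which carries them in the 9 bases before its start, had one of -0.08. Atp5g3, the c-ring gene with the highest ratio, holds the estrogen-related receptor letters on the other strand, shown in capitals because only it and Sdhd carry them among the members.
Atp5g3, chr2:73911345-73911403, minus strand: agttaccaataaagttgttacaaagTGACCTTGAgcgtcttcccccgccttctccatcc

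Known regulators of these genes were looked at from a list. Of 16 measured in adipocyte-like nuclei, 3 were at least 1.2 times higher (23.1% of all genes), 0 were at least 1.2 times lower (15.1%), and their median log2 ratio was 0.05. Esrra, an estrogen-related receptor, had 86.4 CPM in cKO-labelled and 67.4 CPM in flox nuclei (0.36, 0.29 to 0.42), Esrrg 12.2 CPM and 9.86 CPM (0.30, 0.13 to 0.48), and Nfe2l2 138 CPM and 110 CPM (0.33, 0.28 to 0.39). The coactivator Ppargc1a had 110 CPM in cKO-labelled and 94.7 CPM in flox nuclei (0.21, 0.16 to 0.27). The interval of Nrf1 held 0 (0.02, -0.02 to 0.07), and Gabpa, the DNA-binding subunit of GABP, was lower (-0.19, -0.29 to -0.09).

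Other genes of mitochondrial metabolism were counted beside the same 23.1% of all genes. Of 14 citric acid cycle genes 9 lay above 0, beside 55.6% of all genes, and 5 were at least 1.2 times higher, with a median of 0.14. Citrate synthase (Cs) had 190 CPM in cKO-labelled and 127 CPM in flox nuclei (0.58, 0.53 to 0.63), and Suclg2 lay below 0 (-0.13, -0.17 to -0.09). Of 34 genes that the name rule does not take in, assembly factors and the complex III subunit cytochrome c1, 9 were at least 1.2 times higher, a share near that of all genes. At least 1.2 times lower were 3, beside 15.1% of all genes, and the median was 0.12. Cyc1, which encodes cytochrome c1, had 9.88 CPM in cKO-labelled and 6.71 CPM in flox nuclei (0.56, 0.35 to 0.77). Mitochondrial ribosomal proteins had 34 of 78 genes at least 1.2 times higher and a median of 0.22.

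UMIs of the subunits encoded by mitochondrial DNA took a smaller share in the library labelled Prdm16 cKO. Their RNA lies outside the nucleus, so counts from nuclei do not measure its level in the cells. Before filtering, mitochondrial UMIs made up 0.478% of all UMIs in the cKO-labelled and 0.682% in the flox library. Of the 13, 12 lay below 0 in adipocyte-like nuclei, where 55.6% of all genes lay above 0. Together the 13 had 1918 CPM in cKO-labelled and 2183 CPM in flox nuclei (-0.19, -0.20 to -0.17). Mt-Nd4l had the lowest log2 ratio, -1.07 (-1.19 to -0.95), and mt-Nd3 was the exception, with 42.2 CPM in cKO-labelled and 33.2 CPM in flox nuclei. The median mitochondrial share was lower in cKO-labelled nuclei in each of the 8 classes compared, 0.138% against 0.153% in adipocyte-like nuclei. The part of this share in the levels of the nuclear genes was not tested; with mitochondrial UMIs taken out of the total the summed log2 ratio of the members was 0.18.

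Short genes in general were higher in the library labelled Prdm16 cKO, and many members are short. The members span 953 to 155909 bases on GRCm38, with a median of 7333. Among members up to this median 31 of 45 were at least 1.2 times higher, with a median log2 ratio of 0.34; among longer members 7 of 47 were, with a median of 0.13. Among other genes, cytosolic ribosomal proteins left aside, 40.5% of 3350 short genes and 18.6% of 14075 longer genes were at least 1.2 times higher, with medians of 0.18 and 0.01. Cytosolic ribosomal protein genes, which are short as well, had 72 of 75 above 0, beside 55.6% of all genes, and a median of 0.30. Across members, span and log2 ratio had a Spearman rho of -0.53 (92 genes of the same libraries, which share depth), and across all 17586 genes with a span -0.25. The longer members' share past 1.2 thus lay near that of other longer genes. The part of span in the result was not tested.

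**Figure D2:**
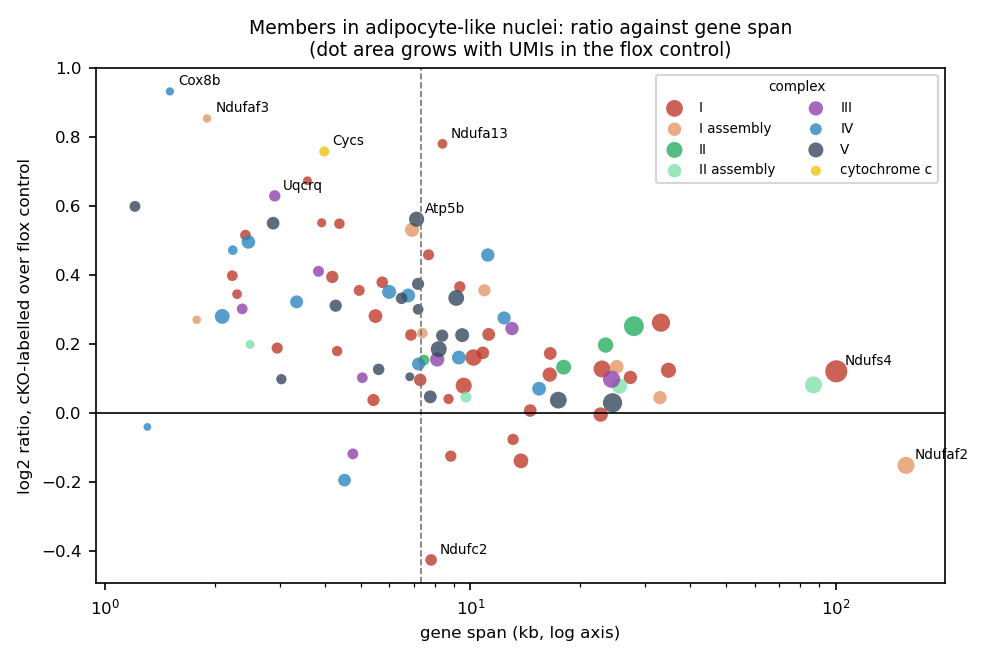
Log2 ratio, cKO-labelled over flox control, in adipocyte-like nuclei against gene span in kilobases on a log axis, with 1 dot per member coloured by complex and sized by its UMIs in the flox control. The dashed line marks the median span of 7333 bases; the highest ratios, such as Cox8b, Ndufaf3 and Cycs, lie left of it, and Ndufs4 and Ndufaf2, which span over 100 kilobases, lie at 0.12 and -0.15.

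The difference was smaller inside each of the 4 adipocyte-like clusters than in their sum. Cluster 6, led by the fatty acid synthesis genes Elovl6 and Acly, held 816 cKO-labelled and 294 flox nuclei and had a summed member level of 2445 CPM (2416 to 2474) in cKO-labelled nuclei, the highest of the 4, and of 2212 CPM (2168 to 2257) in flox nuclei, where its interval overlapped that of cluster 1 (2136 to 2182). Cluster 5, led by Klb, Ntrk2 and Tshr, held 142 cKO-labelled and 1002 flox nuclei and had the lowest level, 1979 CPM (1921 to 2038) in cKO-labelled and 1847 CPM (1825 to 1869) in flox nuclei. The summed log2 ratios within clusters 0, 1, 5 and 6 were 0.11, 0.11, 0.10 and 0.14, each with an interval above 0, and the median log2 ratios 0.17, 0.16, 0.10 and 0.21. At least 1.2 times higher were 27 of 91 members in cluster 0 (22.1% of all genes), 28 of 91 in cluster 1 (24.0%), 26 of 88 in cluster 5 (24.1%) and 37 of 90 in cluster 6 (26.7%). Of the 87 members tested in all 4, 34 lay above 0 and 8 below 0 in every cluster, beside 20% and 12.8% of the 12875 genes tested in all 4. Clusters were formed from the expression of all genes, members included, so levels of clusters are descriptions.

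Of these 87 members, 9 were at least 1.2 times higher in every cluster, beside 3.39% of those 12875 genes: Atp5b, Atp5k, Cox8a, Cycs, Ndufa11, Ndufa13, Ndufaf7, Ndufb9 and Ndufs7. Atp5b had log2 ratios of 0.37, 0.57, 0.45 and 0.43 in clusters 0, 1, 5 and 6, with intervals above 0 in each. Cycs had 0.60, 0.55, 0.67 and 0.81, and its interval held 0 only in cluster 5, at 12 cKO-labelled and 49 flox UMIs. Cox8b did not keep its direction: its ratio was 1.65 in cluster 0 and 1.38 in cluster 1 but -0.90 (-2.05 to 0.30) in cluster 6, at 17 cKO-labelled and 12 flox UMIs. Ndufc2 lay below 0 in all 4 clusters, from -1.25 in cluster 5 to -0.05 in cluster 6.

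The higher level in the library labelled Prdm16 cKO was not particular to adipocyte-like nuclei. The other 7 classes that reached 100 nuclei per library had log2 ratios of the summed members from 0.15 to 0.28. In vascular endothelial-like nuclei the members summed to 1997 CPM (1944 to 2051) in cKO-labelled and 1686 CPM (1647 to 1727) in flox nuclei (0.24, 0.19 to 0.30). In macrophage-like nuclei they summed to 1902 CPM (1850 to 1956) in cKO-labelled and 1653 CPM (1616 to 1689) in flox nuclei (0.20, 0.15 to 0.25). Lymphatic endothelial-like nuclei had 1960 CPM in cKO-labelled and 1615 CPM in flox nuclei (0.28, 0.17 to 0.38), and dendritic-like nuclei 1955 CPM and 1693 CPM (0.21, 0.13 to 0.28). The smallest ratios were those of progenitor or fibroblast-like nuclei, with 1761 CPM in cKO-labelled and 1589 CPM in flox nuclei (0.15, 0.11 to 0.19), of B cell-like nuclei, with 2186 CPM and 1964 CPM (0.15, 0.07 to 0.23), and of mesothelial-like nuclei, with 1759 CPM and 1579 CPM (0.16, 0.11 to 0.20). The adipocyte-like ratio of 0.18 lies within this range. Some of these ratios moved by over 1.5 times with the processing. In mesothelial-like nuclei the summed ratio was 0.10 under TMM scaling and 0.098 thinned to 1000 UMIs, where the median member ratio was 0.0075. In B cell-like nuclei it was 0.078 with nuclei under 1% mitochondrial UMIs alone. In lymphatic endothelial-like nuclei it was 0.18 under the same limit and -0.015 for the 5 members with at least 100 UMIs. In dendritic-like nuclei it was 0.13 under TMM scaling. Thinning raised it to 0.40 in dendritic-like, 0.38 in vascular endothelial-like and 0.25 in B cell-like nuclei.

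**Figure D3:**
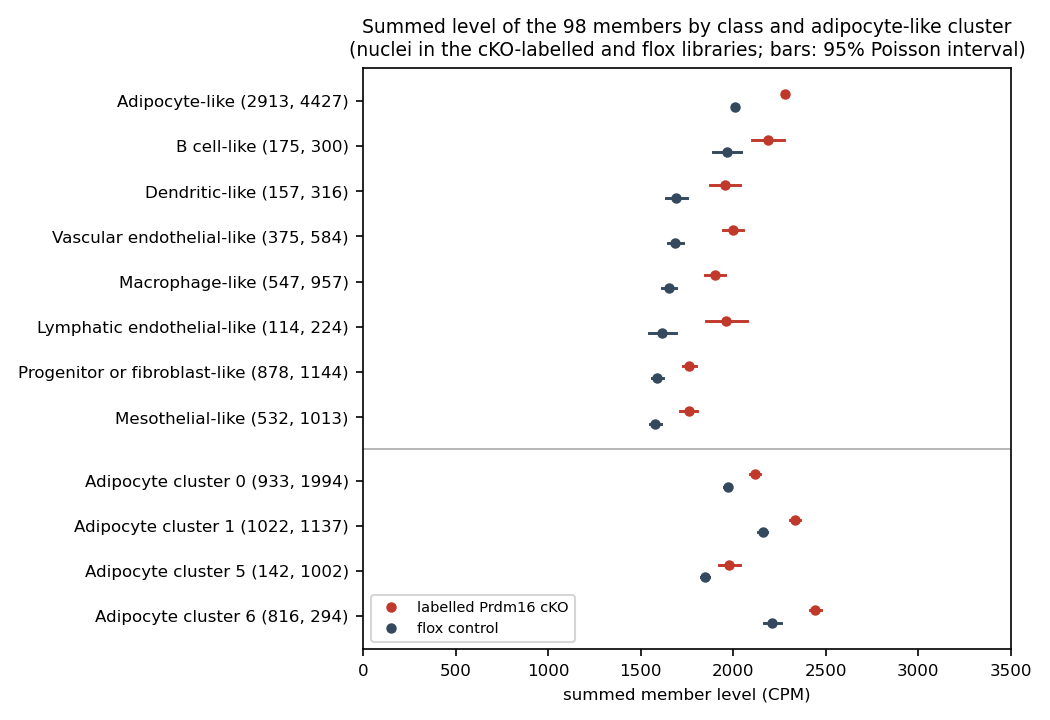
Summed level of the 98 members in CPM for the 8 compared classes (above the line) and the 4 adipocyte-like clusters (below it), with the cKO-labelled library in red above the flox control in dark blue. Bars are 95% Poisson intervals and the numbers are nuclei in the cKO-labelled and flox libraries; the red dot lies right of the dark dot in each class and cluster, at 2281 against 2007 CPM in adipocyte-like nuclei.

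Single members were counted in the same way. At least 1.2 times higher were 46 of 86 members in vascular endothelial-like nuclei (28.7% of all genes), 30 of 85 in macrophage-like (23.2%), 39 of 88 in mesothelial-like (23.5%) and 31 of 89 in progenitor or fibroblast-like nuclei (23.2%). In the smaller classes the figures were 37 of 76 in dendritic-like (30.6%), 32 of 72 in B cell-like (31.4%) and 26 of 52 in lymphatic endothelial-like nuclei (26.4%). At least 1.2 times lower were 14 of 72 in B cell-like (23.2% of all genes), 13 of 52 in lymphatic endothelial-like (22.9%), 7 of 76 in dendritic-like (20.6%) and 7 of 86 in vascular endothelial-like nuclei (23.6%). In macrophage-like nuclei 9 of 85 were (16%), in mesothelial-like 5 of 88 (15.2%) and in progenitor or fibroblast-like nuclei 3 of 89 (14.1%). Of the 52 members tested in all 8 classes, 7 lay above 0 in every class, or 13.5%, beside 7.17% of the 7819 genes tested in all 8. Atp5b was among the clearest outside adipocytes, with 45.2 CPM (37.4 to 54.2) in cKO-labelled and 24.7 CPM (20.5 to 29.6) in flox macrophage-like nuclei and 33.6 CPM (28.9 to 38.9) and 20.5 CPM (17.3 to 24.1) in progenitor or fibroblast-like nuclei. In lymphatic endothelial-like nuclei it had 25.3 CPM in cKO-labelled and 25.5 CPM in flox nuclei, from 16 and 30 UMIs (-0.01, -0.99 to 0.91).

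The summed markers of adipocytes were also higher in the library labelled Prdm16 cKO in the 3 other classes named here. Summed over the 11 adipocyte markers, vascular endothelial-like nuclei had 5279 CPM in cKO-labelled and 2785 CPM in flox nuclei, and macrophage-like nuclei 3122 CPM and 2442 CPM, against 10992 CPM and 10577 CPM in adipocyte-like nuclei. There Pparg and Acsl1 were the largest parts, and single markers went both ways. Fasn (log2 ratio 1.01) and Pparg (0.29) were higher, and Cidec (-0.38), Adipoq (-0.27) and Acsl1 (-0.12) lower. In the other classes the sum does not tell which markers differed. In progenitor or fibroblast-like nuclei the sum was 2399 CPM in cKO-labelled and 1928 CPM in flox nuclei, and none of these 7 classes had the sum at or near 0. Pancreatic acinar markers were higher in the library labelled Prdm16 cKO in all 8 classes, with 168 CPM in cKO-labelled and 35.2 CPM in flox adipocyte-like nuclei and 560 CPM and 84.9 CPM in dendritic-like nuclei. The part of RNA from other cells in the ratios of the members was not tested. With 10% of each class subtracted as free RNA, the lowest summed log2 ratio among the 7 classes was 0.14. This subtraction took the same share from both libraries, so it cannot remove a share that differs between them. No conclusion is drawn from it.

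**Figure D4:**
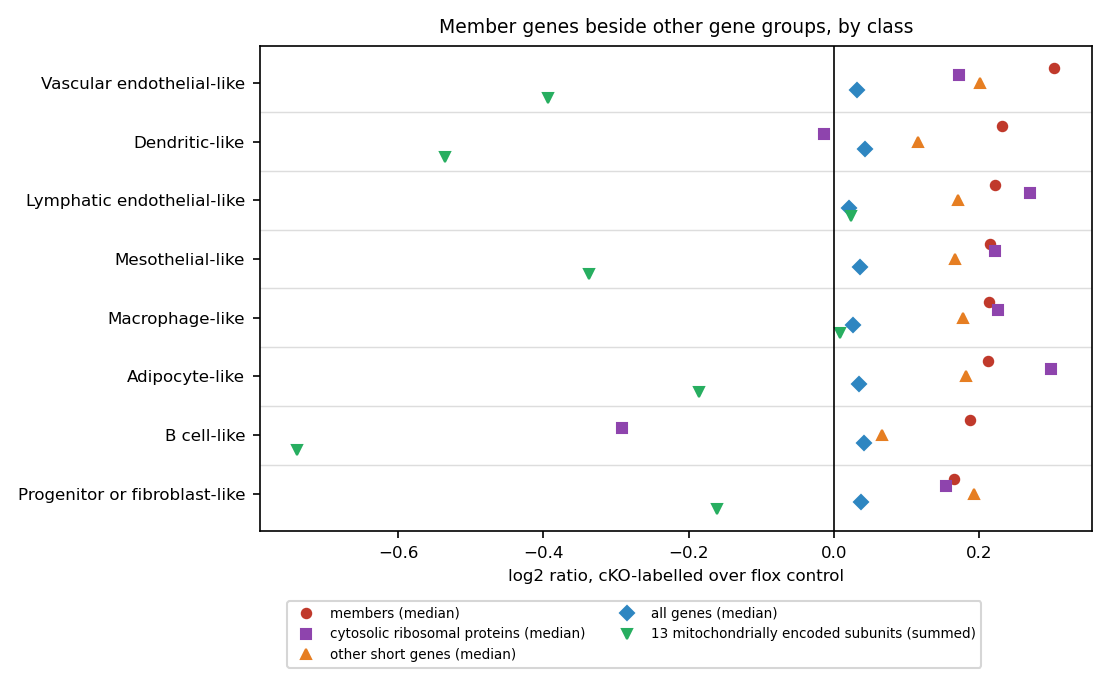
Log2 ratios, cKO-labelled over flox control, by class, for the members, cytosolic ribosomal protein genes, other short genes and all genes (medians over genes with at least 20 UMIs) and for the summed 13 mitochondrially encoded subunits. The member medians lie between 0.17 and 0.30 in all 8 classes, the medians of all genes between 0.02 and 0.04, and the other short genes between 0.07 and 0.20; in progenitor or fibroblast-like nuclei the members (0.17) lie below the other short genes (0.19).

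Adipocyte-like nuclei had the highest summed level of the 8 compared classes in both libraries. Their intervals overlapped those of B cell-like nuclei, 2102 to 2272 CPM in cKO-labelled and 1889 to 2042 CPM in flox nuclei. Some populations outside the 8 classes lay higher. Intestinal epithelial-like nuclei had 2603 CPM in cKO-labelled and 2500 CPM in flox nuclei. T cell-like nuclei had 2250 CPM in cKO-labelled and 2177 CPM in flox nuclei, and lay higher in the flox control only. The lowest values of the 8 were those of mesothelial-like and progenitor or fibroblast-like nuclei, whose intervals overlapped in either library. In the flox control they also overlapped those of lymphatic endothelial-like nuclei (1543 to 1689 CPM). There the interval of fibroblast-like nuclei also touched that of macrophage-like nuclei (1616 to 1689 CPM). In cKO-labelled nuclei the same order of adipocyte-like above fibroblast-like held for each complex: 872 against 696 CPM in complex I, 224 against 146 CPM in complex II, 158 against 141 CPM in complex III, 281 against 211 CPM in complex IV and 472 against 337 CPM in ATP synthase. Over both libraries, 27 of the 92 members with at least 20 UMIs in adipocyte-like nuclei had their highest level of the 8 classes there, beside 17.9% of the 17605 genes with as many UMIs. Ndufb3, an accessory subunit of complex I, had 46.5 CPM there and 22.2 CPM in dendritic-like nuclei, its lowest class, and Sdhb 33.3 CPM there and 15.5 CPM in mesothelial-like nuclei. Ndufb3, Sdhaf3, Ndufs3 and Ndufaf4 stood 1.67, 1.62, 1.62 and 1.59 times above the median of the other classes.

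Other members were low in adipocyte-like nuclei. Atp5g1 had 1.88 CPM (1.47 to 2.36) in cKO-labelled and 1.75 CPM (1.42 to 2.12) in flox adipocyte-like nuclei, and 4.12 CPM (2.06 to 7.37) and 4.88 CPM (2.98 to 7.54) in vascular endothelial-like nuclei. Its intervals overlapped those of adipocyte-like nuclei in the cKO-labelled library of vascular endothelial-like nuclei, and in both libraries of B cell-, macrophage-, dendritic-, lymphatic endothelial- and mesothelial-like nuclei. Cox6b2, the testis isoform of subunit 6b, had the largest spread of the members: mesothelial-like nuclei had 23 UMIs (7.01 CPM, 4.44 to 10.5) in cKO-labelled and 52 UMIs (7.77 CPM, 5.8 to 10.2) in flox nuclei, while adipocyte-like nuclei had 0.566 CPM and 0.582 CPM. Its level was 13.1 times higher in mesothelial-like than in adipocyte-like nuclei over both libraries. At the other end, Cox7a2l, which helps join complexes into supercomplexes, differed 1.24 times between its highest and lowest class, and Ndufv2 1.28 times.

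Isoforms linked to low oxygen were seen in pericyte-like nuclei, the cells that wrap small vessels, which were too few to compare (44 cKO-labelled and 74 flox nuclei). Cox4i2 had 2 UMIs (7.4 CPM, 0.896 to 26.7) in cKO-labelled and 7 UMIs (21.1 CPM, 8.49 to 43.5) in flox pericyte-like nuclei, and Ndufa4l2 5 UMIs (18.5 CPM, 6.0 to 43.1) and 4 UMIs (12.1 CPM, 3.29 to 30.9). In adipocyte-like nuclei the same genes had 0.0772 CPM in cKO-labelled and 0.0685 CPM in flox nuclei, and 0.0772 CPM and 0.0171 CPM. The intervals of pericyte-like and adipocyte-like nuclei do not touch for either gene in either library. Smooth muscle-like nuclei had 0 UMIs of each gene in the cKO-labelled library (0 to 22.1 CPM). In the flox control they had 1 UMI of each (2.05 CPM, 0.0518 to 11.4). These intervals overlap those of pericyte-like nuclei for both genes in both libraries.

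**Figure D5:**
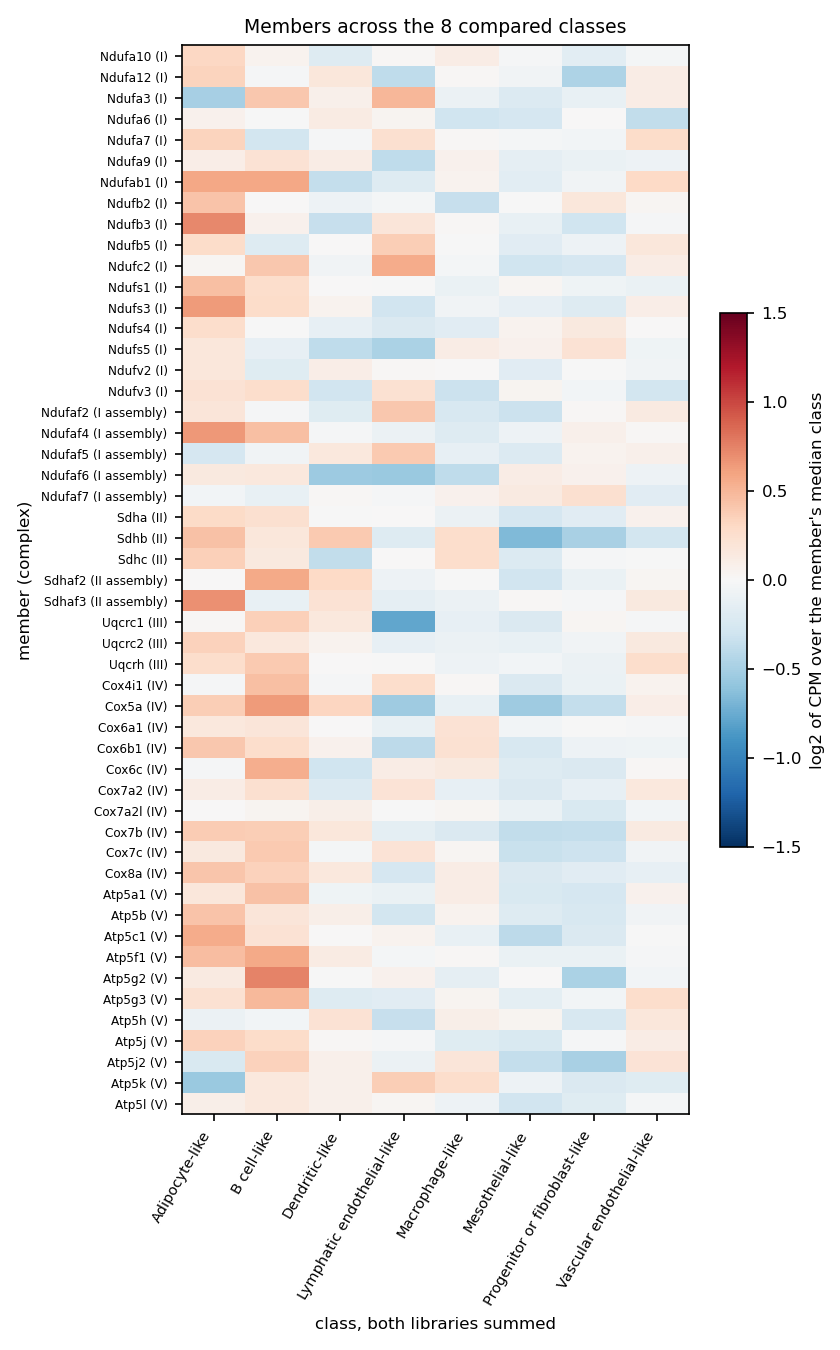
Level of 51 of the 52 members tested in all 8 classes, both libraries summed, as the log2 of the CPM in a class over the member's median class, with members in rows by complex and classes in columns. Red is higher and blue lower than the median class; the adipocyte-like column is mostly red, with Ndufb3, Sdhaf3, Ndufs3 and Ndufaf4 high and Atp5k low.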

How the data were processed

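Each library's deposited matrix gives UMI counts by gene and barcode, made by the authors with Cell Ranger 6.1.2 on mm10, going by the submitters' processing notes; for the annotation, intron counting and strand handling, the sources used here give nothing. The files hold no annotation of nuclei. Barcodes under 500 UMIs or 300 genes, or with 5% or more mitochondrial UMIs, were dropped, and the highest Scrublet scores were removed in each library at a preset rate (495 of 7869 and 1079 of 11611), because the automatic threshold marked 0.0508% in the library labelled Prdm16 cKO. Leiden clustering (scanpy 1.11.5, leidenalg 0.10.2; 2000 genes, 30 components, 20 neighbours, resolution 1.0, no batch integration) gave 28 clusters, named "-like" from at least 3 detected markers; clusters 4 and 12 stayed unnamed, and names are rebuilt and may differ from the study's. In cKO-labelled nuclei the adipocyte-like class lay mostly in clusters 0, 1 and 6 and in flox nuclei in clusters 0, 1 and 5. UMIs of a class were added up within a library and divided by that class total to give CPM. Levels have exact Poisson intervals and ratios exact conditional binomial intervals at 95%. The ratio intervals were run on counts simulated with counting error alone. That run cannot show how they cover differences between libraries. No test was made, since nuclei are not replicates. Positions (GENCODE M21, GRCm38) were found for 32158 of 32285 identifiers; 31 members overlap another gene, and without known strand handling their counts are uncertain. Genes named in the text are, per complex, the members with the 2 highest and 2 lowest ratios at 50 or more UMIs in adipocyte-like nuclei, those with the most and least spread between classes, and the core, isoform and regulator lists, with a few further examples chosen after their values were seen. The members and lists were chosen with earlier results of these data known. Alternatives were TMM scaling (edgeR 4.0.16), mean CPM per nucleus, thinning to 1000 UMIs, other filters and clusterings. A result of 1 member is not reported here.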

Additional observations from a re-analysis of the deposited data

Results flagged for a closer look

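Nuclei outside the 8 compared classes were looked at for a summed member level in the library labelled Prdm16 cKO above that of the flox control beyond both counting intervals, and 4 such populations were found. Granulocyte-like nuclei, led by Ccr3 and Retnlg, had 4794 CPM (4545 to 5054) in 98 cKO-labelled nuclei and 3681 CPM (3522 to 3845) in 186 flox nuclei, the highest level of any population, with a median of 2596 and 2701 UMIs per nucleus and a median mitochondrial share of 2.23% and 1.81%. The cluster with markers of natural killer or innate lymphoid cells had 2332 CPM in cKO-labelled and 1951 CPM in flox nuclei. Unnamed cluster 4, led by Grik1 and Lrp1b, had 2871 CPM (2804 to 2939) in 963 cKO-labelled nuclei and 2468 CPM (2378 to 2561) in 414 flox nuclei, at a median of 2060 UMIs. Unnamed cluster 12, with markers of T cells and of natural killer cells, had 2198 CPM in cKO-labelled and 1959 CPM in flox nuclei. The other 6 named populations outside the 8 classes had ratios whose intervals held 0: T cell-like 0.05 (-0.08 to 0.17), where 14 of 33 members lay above 0 (median -0.11), pancreatic acinar-like 0.05 (-0.05 to 0.16), intestinal epithelial-like 0.06 (-0.07 to 0.18), pericyte-like 0.09 (-0.08 to 0.26), smooth muscle-like 0.17 (-0.01 to 0.35) and Schwann-like 0.25 (-0.03 to 0.53). These differences have no replicate and were not tested.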

How the results depend on the processing

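No paired analysis was possible because each genotype has 1 library and the labels give no replicate numbers. The adipocyte median log2 ratio of the members (0.21) was 0.17 under TMM scaling, 0.23 thinned to 1000 UMIs, 0.19 with doublets kept, 0.20 with no minimum, 0.22 at 100 UMIs or more, 0.23 for structural subunits only, 0.18 with each library clustered alone and 0.15 with cluster makeup held equal. The summed log2 ratio (0.18) was 0.15 under TMM, 0.22 thinned and 0.12 with cluster makeup held equal. The count at least 1.2 times higher (38, beside 23.1% of all genes) ranged from 26 to 44 over the alternatives at that fold and was 7 at a fold of 1.5. The count lower (1) was 4 thinned, 2 with no minimum, 2 with each library clustered alone, 4 with makeup held equal and 0 at a fold of 1.5. The share of all genes was not counted under the alternatives at the fold of 1.2. Their counts thus do not tell whether the members stood apart from all genes there. Among the 7 other classes the lowest median (0.17) was 0.12 under TMM, 0.0075 thinned (mesothelial-like), 0.12 with doublets kept, 0.10 under 1% mitochondrial UMIs (B cell-like) and 0.063 at 100 UMIs or more. Their lowest summed ratio (0.15) was 0.10 under TMM, 0.10 thinned and 0.078 under 1% mitochondrial UMIs; at 100 UMIs or more it was -0.015 in lymphatic endothelial-like nuclei, where 5 members entered. Thinning gave an adipocyte level of 2336 CPM in cKO-labelled and 2001 CPM in flox nuclei. Chosen after seeing the data, members that overlap no other gene had a median of 0.23, and adding unnamed cluster 4 gave 0.25 and a summed ratio of 0.20. Where no construction shows it, the cause was not tested. Of 126 alternatives for single classes 103 stayed within the half-width of the class's counting interval, 22 moved beyond it and 1 changed sign. The summed ratio with no minimum takes the same members as the main setting, so it could only stay. The half-width is that of the summed ratio, was used for the medians too, and is wider in classes with fewer UMIs. These counts therefore do not measure how stable the ratios are. Low counts limit single members outside adipocyte-like nuclei: in B cell-like nuclei the interval held 0 for 64 of 72.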
